A study of Populus ussuriensis with 18 samples.

Results

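In roots of *Populus ussuriensis* under low nitrogen (LN), 30 of 30485 genes had a low level in replicates 1 and 2 of the 48 h group and a several times higher level in replicate 3 of the same group, in the control and at 24 h. The 30 genes were chosen by these values. On the scale of log2(FPKM + 1), the mean of 48 h replicates 1 and 2 lay at least 2 below replicate 3, and at least 1.5 below the mean of the control and the mean of 24 h. FPKM values are fragments divided by gene length and by the library total, which adjusts for length and depth only. As they are relative to the total, a rise of some genes lowers the values of others. Of 34 genes past these 3 thresholds, 4 were left out because their group mean lay 1 or more below that of the control at each LN time point. The levels in the control, 24 h and 48 h libraries are therefore a description. The tests are those among 12, 96 and 336 h, and counts of calls against the control are given only beside the share of all genes called, with nothing read from them.

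The 18 libraries come from whole root systems of wild-type, clonally propagated plantlets grown in vitro on Woody Plant Medium, with 16 h of light and 8 h of dark. Cuttings of 4-week-old plantlets rooted for 3 weeks on medium with 10 mM nitrate and 5 mM ammonium, and the 3 control libraries were taken from these roots at 0 h. The LN groups, of 3 libraries each, were taken at 12, 24, 48, 96 or 336 h on 0.05 mM nitrate and 0.025 mM ammonium. The study calls the replicates biological, and no source used here says whether a replicate is 1 plantlet or a pool. No control roots of a later time were analysed here, and the batch named in the labels is the time group itself, so batch, time since transfer and nitrogen supply cannot be told apart. All plantlets of a clone share a genotype, which limits the data to that genotype.

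Roots take up nitrate and ammonium from the medium, and when the supply falls they change the transcripts of many genes for transport, hormone response and growth. Of the 30 genes, 2 have a description in the study's tables. Potri.007G090600 is described as the ethylene-responsive transcription factor RAP2-4, of the AP2/ERF family, whose members bind DNA through an AP2 domain and which in *Arabidopsis* takes part in responses to ethylene, light and drought. Potri.005G135300 is described as Peroxidase 10, a class III peroxidase, a family of secreted heme enzymes that use hydrogen peroxide and act on phenolic compounds of the cell wall. The other 28 genes have no description in the sources used here and are given by their *P. trichocarpa* identifiers alone, in which the number after the dot is the chromosome.

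Within the 48 h group, replicate 3 stood apart from replicates 1 and 2 over the whole transcriptome. Which of the 48 h libraries represents the labelled time cannot be told from the files, and the labels also list a 6 h time point that was not analysed here, so every 48 h value is given per library. Across all genes, the correlation of log2(FPKM + 1) between replicates of a group was 0.993 to 0.996, but it was 0.939 between 48 h replicate 3 and either of the other 48 h replicates. Of 24473 expressed genes, those that reached 1 FPKM in 3 or more libraries, 104 were at least 2 lower on the log2 scale in replicates 1 and 2 than in replicate 3, and 532 were at least 2 higher. Past the same 3 thresholds in the other direction lay 470 genes. The libraries held 15945075 to 18193661 fragments counted on genes (median 17401560), and 48 h replicate 2 was the deepest. The 13 genes of a jasmonate list (TIFY proteins, lipoxygenase, allene oxide synthase and cyclase, oxophytodienoate reductase) summed to 1813 and 1883 FPKM in 48 h replicates 1 and 2 and to 130 in replicate 3, while the other groups summed to between 119 and 277. Of these 13 genes, 11 were at least 1 higher on the log2 scale in 48 h replicates 1 and 2 than in replicate 3. The other direction, at least 1 lower, held for 1 of them. In 48 h replicates 1 and 2, 4 genes described as chlorophyll-binding or photosystem proteins summed to 147 and 149 FPKM, against 231 in replicate 3. Their sums were 347 to 365 in the control, 153 to 166 at 12 h and 254 to 258 at 24 h. At 96 h they were 330 to 354 and at 336 h 72.8 to 97.2. The sums hide opposite directions. Between 48 h replicates 1 and 2 and replicate 3, these 4 genes had a median log2 difference of -0.32. Of them, 1 was at least 1 lower and 1 at least 1 higher. None of these 4 genes was at 0 in any library. The root regulators SHORT-ROOT and SCARECROW (4 genes) summed to 7.34 to 29.4 FPKM over all libraries, and none of the 4 was at 0 in any library. The part of these differences in the levels of the 30 genes was not tested. In whole roots, fewer cells of a type and less RNA per cell cannot be told apart.

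The 30 genes together took 0.0351% and 0.0348% of the fragments in 48 h replicates 1 and 2, against 0.214% in replicate 3. Their share was 0.196% to 0.199% in the control, 0.151% to 0.152% at 12 h, 0.1803% to 0.182% at 24 h, 0.176% to 0.177% at 96 h and 0.139% to 0.147% at 336 h. The low pair thus stood below all of the other 16 libraries, and the ranges of the other groups did not overlap with each other or with 48 h replicate 3. For every 1 of the 30 genes, both low libraries were also below each of the other 16, which holds for 14.6% of the expressed genes. As the thresholds used 7 of these 16 libraries and the leaving-out step read the group means of the rest, nothing is read from this count.

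**Figure D1:**
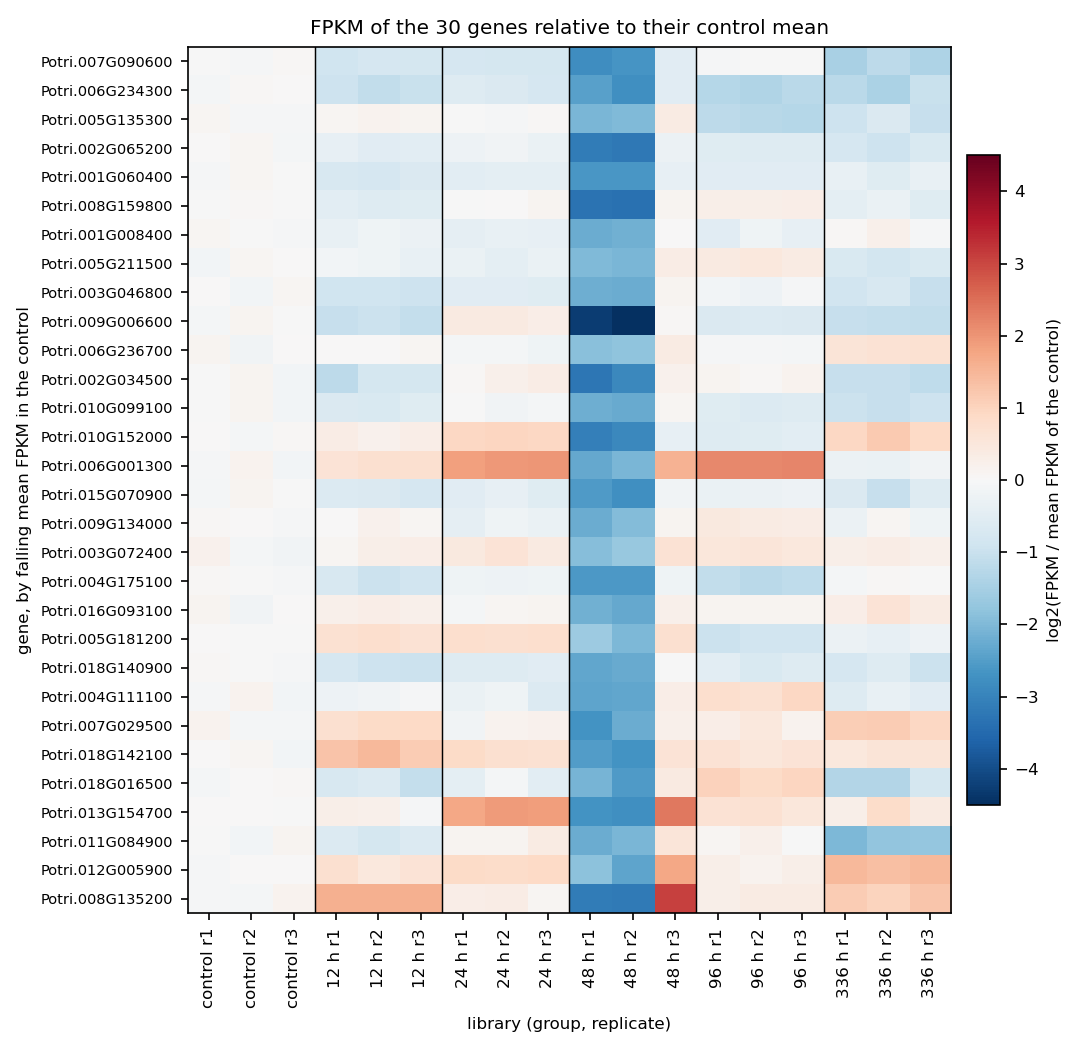
Each cell gives log2 of the FPKM of a gene in a library over the mean FPKM of that gene in the control, for the 30 genes (vertical axis, ordered by control level) and the 18 libraries (horizontal axis). The columns of 48 h replicates 1 and 2 are blue in all 30 genes because the rule placed them there. Replicate 3 of 48 h runs from 0.698 to 8.49 times the control mean.

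The genes ranged widely in level. The control mean ran from 3.497 to 147 FPKM with a median of 24.8, and 24 of the genes were at 10 FPKM or more in the control. In 48 h replicates 1 and 2 the mean ran from 0.390 to 29.2 FPKM with a median of 4.51. Replicate 3 was 4.24 to 76.1 times the mean of replicates 1 and 2 (median 5.74). The control was 3.52 to 21.2 times that mean (median 5.00), and 24 h was 3.21 to 27.5 times (median 4.87). Over all expressed genes, the median log2 difference of replicates 1 and 2 was -0.13 against replicate 3, 0.0066 against the control and -0.10 against 24 h. Within each gene the low libraries were close to each other, as their difference on the log2 scale had a median size of 0.113 and reached 0.316. Over all such genes the median size was 0.0898. The low levels rested on at least 17 fragments, with a median of 119.5, so counting error alone is small for most of the genes and larger for the lowest.

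**Figure D2:**
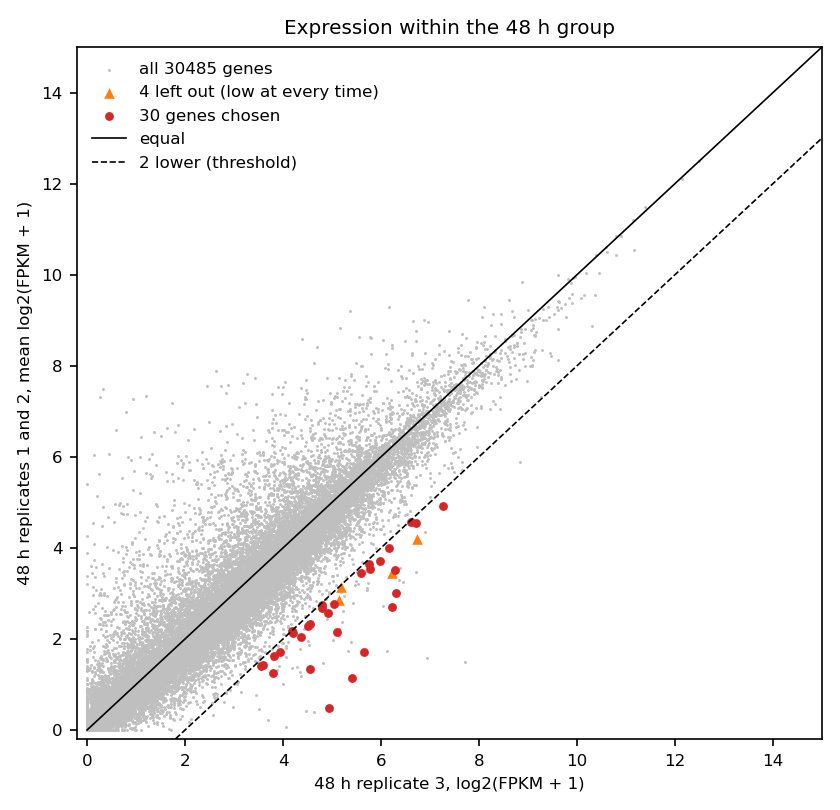
Mean log2(FPKM + 1) of 48 h replicates 1 and 2 (vertical axis) against 48 h replicate 3 (horizontal axis) for all 30485 genes, with the 30 chosen genes in red and the 4 left out as triangles. The red points lie on or under the dashed line of a difference of 2 because the rule placed them there, and many more grey points lie far above the line of equality than far below it.

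Genes lay close to each threshold on both sides. The gene nearest the limit of 2 from inside was Potri.018G140900, with a difference to replicate 3 of 2.01, and the nearest outside was Potri.001G149400 with 1.95. For the limit of 1.5 against the control, Potri.012G005900 lay inside with 1.59 and Potri.006G117500 outside with 1.44. For the same limit against 24 h, Potri.018G016500 lay inside with 1.502 and Potri.008G187300 outside with 1.46. The 4 genes left out were Potri.001G096500, Potri.005G190800, Potri.009G107100 and Potri.011G030900. The last is described as ILR3, a bHLH transcription factor that in *Arabidopsis* regulates iron homeostasis. In Potri.011G030900 the mean of 48 h replicates 1 and 2 was 17.4 FPKM and replicate 3 was 6.10 times as high, while 96 h and 336 h stood at 0.196 and 0.200 times the control.

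The gene described as RAP2-4, Potri.007G090600, had the highest control level of the 30 genes. It stood at 146, 144 and 153 FPKM in the control, 79.3, 86.6 and 86.2 at 12 h, 87.0, 84.5 and 86.2 at 24 h, 21.4, 23.6 and 103 at 48 h, 143, 147 and 145 at 96 h, then 54.0, 65.2 and 56.2 at 336 h. The levels thus formed 3 tiers apart from the low pair, with the control and 96 h on top, 12 h, 24 h and 48 h replicate 3 in the middle, and 336 h lowest. The ranges of 12 h and 24 h overlapped, as did those of the control and 96 h. Behind the low values stood 850 and 970 fragments, against 3913 in replicate 3.

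The peroxidase gene Potri.005G135300 had 126, 116 and 116 FPKM in the control, and the libraries of 12 h (126, 132 and 129 FPKM) and 24 h (118, 115 and 122 FPKM) were close to it. The 48 h libraries had 28.7, 29.8 and 154 FPKM, the 96 h libraries 52.1, 50.7 and 48.6, and the 336 h libraries 62.5, 75.1 and 57.8. Replicate 3 of 48 h was above every other library, 1.16 times the next highest, and the low pair was below the 96 h libraries as well, although these too were low. The 6 libraries of 96 h and 336 h did not overlap with those of the control, 12 h or 24 h.

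The largest gap to the control was that of Potri.009G006600. Its level was 45.1, 51.6 and 46.8 FPKM in the control, 23.3, 24.2 and 22.9 at 12 h, 64.1, 63.1 and 59.4 at 24 h, 2.46, 2.06 and 49.0 at 48 h, 30.3, 31.1 and 30.6 at 96 h, then 23.3, 23.0 and 22.4 at 336 h. The control was 21.2 times and 24 h was 27.5 times the low pair, and the lowest of the other libraries was still 9.11 times the higher of the low pair. This gap was the widest of the 30 genes. The ranges of 12 h and 336 h overlapped and lay below 96 h, which lay below the control.

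Potri.008G159800 came next, with the control at 10.0 times the low pair. It had 69.9, 74.0 and 69.9 FPKM in the control, 51.8, 47.7 and 48.3 at 12 h, 70.3, 71.9 and 77.4 at 24 h, 7.18, 7.03 and 78.4 at 48 h, 85.2, 85.2 and 88.1 at 96 h, then 53.1, 57.9 and 49.3 at 336 h. Apart from the low pair, all values of this gene lay between 47.7 and 88.1 FPKM. Potri.002G065200, the shortest of the 30 genes at 636 bp, had 87.4 to 99.4 FPKM in the control, 10.6 and 10.1 in the low pair and 77.2 in replicate 3. At 96 h it stood at 62.6 to 63.5 FPKM, below its control, where Potri.008G159800 was above its own. In Potri.002G034500 the low pair stood at 3.03 and 3.94 FPKM, with 33.4 in replicate 3 and 26.9 to 31.8 in the control.

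Among the other genes with a high control level, Potri.006G234300 had 131, 146 and 141 FPKM in the control and 25.3, 20.6 and 97.2 at 48 h. Its level was lower than the control in each later library, with 52.3 to 92.0 FPKM at 12, 24, 96 and 336 h, yet the low pair was below all of them. Potri.001G060400 had 88.7 to 96.4 FPKM in the control, and its 48 h libraries read 14.96, 14.95 and 70.9. Potri.001G008400 had 50.4 to 55.4 FPKM in the control and 11.3, 11.9 and 52.8 at 48 h. These 3 genes had replicate 3 inside the range of the other groups.

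Potri.005G211500 read 12.5, 11.9 and 62.1 FPKM at 48 h, beside 45.4 to 52.5 in the control and 63.9 to 68.3 at 96 h. Potri.003G046800 read 10.7, 10.6 and 53.4 FPKM at 48 h, beside 45.4 to 52.4 in the control and 25.6 to 26.3 at 12 h. In Potri.015G070900 the 48 h libraries were at 4.22, 3.59 and 21.9 FPKM, and the control at 23.1 to 26.4. All other libraries of this gene, from 12.0 FPKM upward, were above the low pair. The 48 h libraries of Potri.004G175100 stood at 3.35, 3.36 and 17.5 FPKM, those of Potri.005G181200 at 5.62, 4.31 and 29.2, those of Potri.018G016500 at 1.96, 1.43 and 11.05, and those of Potri.018G140900 at 3.40, 3.60 and 17.2. The 10 genes that the rule for names did not pick by level or call, Potri.018G140900 among them, ran from 1.18 to 10.3 FPKM in the low pair, from 12.8 to 47.0 in replicate 3, from 7.78 to 38.8 in the control and from 7.61 to 34.2 at 24 h.

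In other genes the level at 24 h was above that of the control. Potri.006G001300 had 24.4, 27.8 and 22.9 FPKM in the control, 38.1, 41.1 and 41.6 at 12 h, 90.3, 97.7 and 99.98 at 24 h, 5.12, 5.95 and 73.8 at 48 h, 112, 113 and 116 at 96 h, then 20.9, 20.3 and 22.6 at 336 h. Without the low pair the group means of this gene ran from low to high in the order 336 h, control, 12 h, 24 h and 96 h and no ranges of neighbouring groups overlapped. Potri.010G152000 had 23.8 to 25.9 FPKM in the control, 47.6 to 48.6 at 24 h, 2.95, 3.35 and 19.6 at 48 h, at most 18.2 at 96 h and 46.3 to 57.5 at 336 h. It was the only gene of the 30 in which replicate 3 lay 1 or more below 24 h on the log2 scale.

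Replicate 3 of 48 h lay within 0.5 of the 24 h mean on the log2 scale in 21 of the 30 genes (70%), beside 90.3% of the expressed genes, and within 0.5 of the control mean in 21 genes (70%), beside 79.1%. It lay inside the range of the 3 libraries of 24 h in 4 genes, beside 27.0% of the expressed genes. In 7 genes it was above every other library, where 5.64% of the expressed genes had replicate 3 highest. As a higher level in replicate 3 is part of the rule, nothing is read from these counts. The extreme was Potri.008G135200, with 0.397, 0.383 and 29.7 FPKM at 48 h, of which the low values rested on 17 fragments each and the high on 1211. The gene had 3.25 to 3.87 FPKM in the control, 10.5 to 10.7 at 12 h, 3.72 to 4.41 at 24 h, 4.17 to 4.56 at 96 h and 7.05 to 8.28 at 336 h, so replicate 3 was 2.77 times the highest of all other libraries. Its ratio of 76.1 between replicate 3 and the low pair was the highest of the 30 genes. Potri.013G154700, singled out after its values were seen, followed with 1.23 and 1.18 FPKM in the low pair and 41.5 in replicate 3, a ratio of 34.5. Potri.012G005900 read 1.83, 1.28 and 22.3 FPKM at 48 h and at most 18.4 elsewhere.

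**Figure D3:**
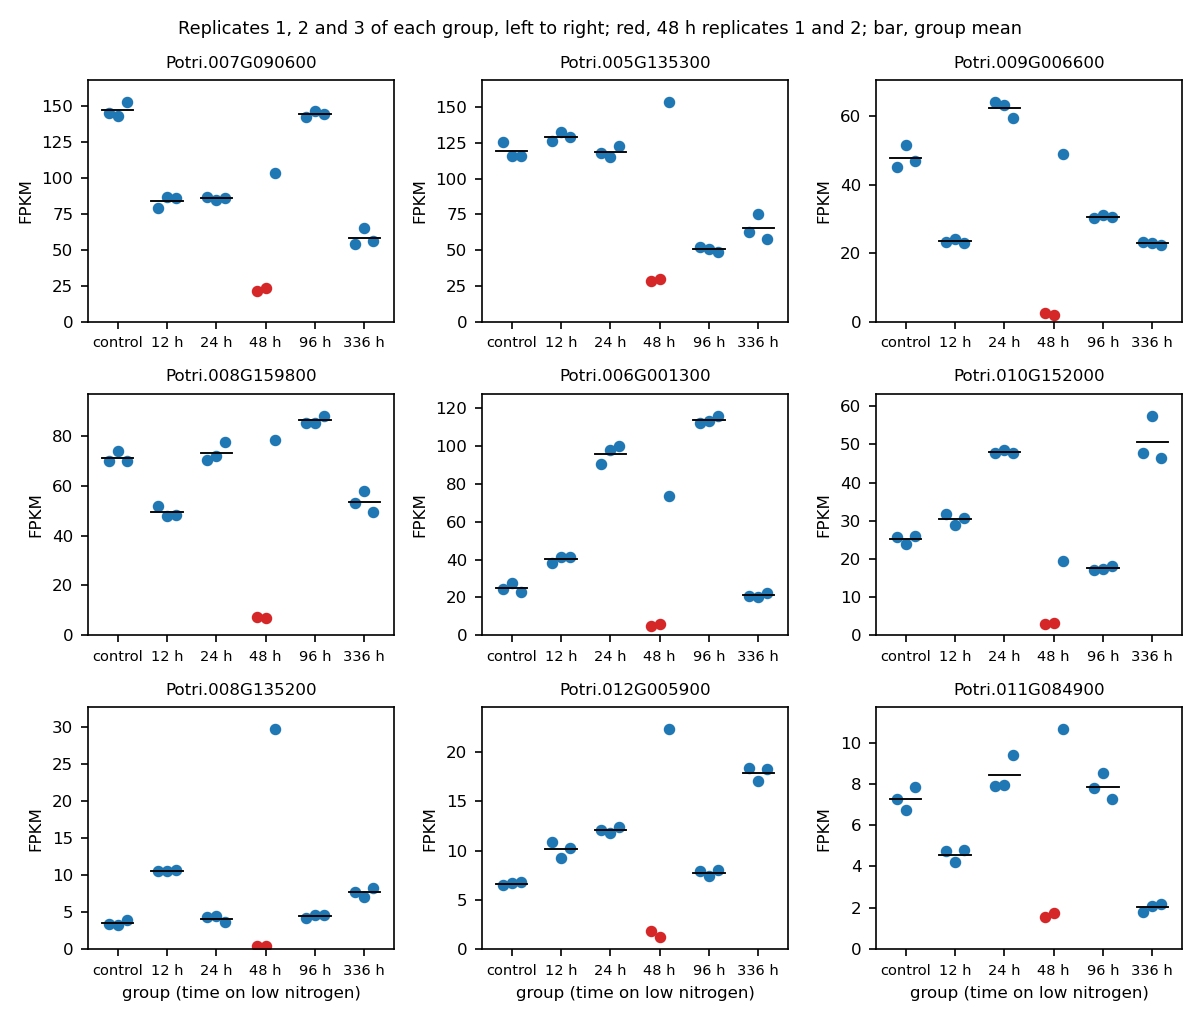
FPKM (vertical axes, from 0) of 9 of the genes in the control and the 5 LN groups (horizontal axes), with 1 point per library in the order of replicates 1, 2 and 3 and a bar for the mean of each group other than 48 h. The red points, 48 h replicates 1 and 2, are the lowest in each panel, while the profiles over the other groups differ from gene to gene, as in Potri.006G001300, highest at 96 h, and Potri.010G152000, low at 96 h.

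In the comparison of 48 h with the control over all 3 libraries, limma called 0 of the 30 genes lower and 0 higher at an adjusted p under 0.05 and a log2 difference of 1 or more, while 2.14% of the genes tested were called lower and 2.84% higher. At an unadjusted p under 0.05, 10 of the 30 genes passed (33.3%), beside 31.3% of all genes tested. Without 48 h replicate 3, all 30 were called lower. With all 18 libraries in 1 fit, 22 were. The rule used these libraries, so these counts follow from the choice of the genes and nothing is read from them.

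The comparisons among 12, 96 and 336 h ask whether the genes, chosen for their level in 2 libraries of 48 h, also differed between the other LN times. None of these 9 libraries entered the 3 thresholds, although the group means of these times were read to leave out genes low at every time. At 96 h against 12 h, limma with Benjamini-Hochberg adjustment called 2 of the 30 genes higher (6.67%) and 3 lower (10%), where 4.80% of 23611 genes tested were called higher and 2.57% lower. The median log2 difference was 0.23 in the 30 genes and 0.025 in all genes tested. Of the 2 higher genes, Potri.006G001300 had a mean of 113.8 FPKM ± 2.02 (SD, n = 3) at 96 h and 40.3 ± 1.87 at 12 h, a log2 difference of 1.48 (SE 0.054, limma adjusted p = 1.3e-06). Potri.018G016500 had 17.2, 15.1 and 16.3 FPKM at 96 h and 5.08, 5.41 and 3.99 at 12 h, a log2 difference of 1.57 (SE 0.10, limma adjusted p = 1.2e-05). In both genes the 3 libraries of 96 h were above the 3 of 12 h, and above those of the control. With all 18 libraries in 1 fit, in which the 48 h group widens the spread, the difference of Potri.006G001300 was again 1.48 but its adjusted p was 0.060.

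The 3 genes lower at 96 h than at 12 h were the peroxidase gene and a pair without a description. Potri.005G135300 fell from 129 FPKM ± 3.15 to 50.5 ± 1.77 (SD, n = 3), a log2 difference of -1.34 (SE 0.052, limma adjusted p = 1.5e-06). Potri.005G181200 read 28.3, 29.5 and 27.7 FPKM at 12 h and 8.89, 9.77 and 9.77 at 96 h, a log2 difference of -1.49 (SE 0.058, limma adjusted p = 1.5e-06). Potri.008G135200 fell from 10.6 FPKM ± 0.109 to 4.43 ± 0.222, a log2 difference of -1.10 (SE 0.052, limma adjusted p = 3.4e-06). The groups did not overlap in any of the 3. With all 18 libraries in 1 fit, Potri.008G135200 kept its difference of -1.10 and had an adjusted p of 0.26.

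At 336 h against 96 h, 7 of the 30 genes were called lower (23.3%) and 3 higher (10%), where 4.96% of 23796 genes tested were called lower and 2.71% higher. The median log2 difference was -0.20 in the 30 genes and 0.054 in all genes tested. The largest fall was again in Potri.006G001300, from 113.8 FPKM to 21.3 ± 1.16 (SD, n = 3), a log2 difference of -2.37 (SE 0.063, limma adjusted p = 1.9e-07). Potri.018G016500 fell from 16.2 FPKM ± 1.07 to 3.84 ± 0.859, a log2 difference of -1.84 (SE 0.12, limma adjusted p = 1.3e-05). These 2 genes thus changed in both comparisons, up to 96 h and down after it. Potri.011G084900 read 7.78, 8.52 and 7.25 FPKM at 96 h and 1.81, 2.11 and 2.196 at 336 h, with a log2 difference of -1.54 (SE 0.080, limma adjusted p = 3.8e-06). Its 336 h libraries were nearly as low as the pair of 48 h, at 1.53 and 1.75 FPKM.

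The RAP2-4 gene Potri.007G090600 fell from 145 FPKM ± 2.00 at 96 h to 58.5 ± 5.94 at 336 h (SD, n = 3), a log2 difference of -1.30 (SE 0.080, limma adjusted p = 9.1e-06). The other 3 lower genes were Potri.002G034500, Potri.005G211500 and, named after its values were seen, Potri.004G111100, with log2 differences of -1.14, -1.12 and -1.18. The 3 higher genes were Potri.010G152000, from 17.5 FPKM ± 0.609 to 50.5 ± 6.06, Potri.012G005900, from 7.77 ± 0.336 to 17.9 ± 0.757, and Potri.004G175100, from 8.69 to 9.30 FPKM at 96 h to 18.8 to 20.98 at 336 h. Their log2 differences were 1.47, 1.11 and 1.06. In all 10 called genes the libraries of 336 h and 96 h did not overlap. With all 18 libraries in 1 fit, the differences of Potri.002G034500 and Potri.012G005900 were again -1.14 and 1.11, with adjusted p of 0.094 and 0.13.

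Between 336 h and 12 h, limma called 0 of the 30 genes in either direction, where 5.04% of 23619 genes tested were called higher and 4.67% lower. The differences ran from -0.99 to 0.78 on the log2 scale, with a median of -0.12 beside 0.059 over all genes tested. Without the limit on the size of the difference, 18 of the 30 (60%) had a limma adjusted p under 0.05, beside 60.4% of all genes tested, and 19 (63.3%) an unadjusted p under 0.05, beside 64.6%. With a pseudocount of 0.1, with limma-voom, without 336 h replicate 2 or without 12 h replicate 1, the count of lower genes was 1. Over the 3 comparisons, 13 of the 30 genes (43.3%) were called at least once and 17 in none, beside 15.04% called at least once of the 23028 genes tested in all 3. By group mean among these times, 16 genes (53.3%) were highest at 96 h, 8 (26.7%) at 336 h and 6 (20%) at 12 h, beside 29.7%, 38.2% and 32.1% of the same 23028 genes. The sets are unlike in level, as the rule favours well expressed genes. The control mean was at least 3.497 FPKM in the 30 genes (median 24.8), while a tested gene needed 1 FPKM in 3 libraries. A pseudocount of 1 understates changes of low genes. The sets are unlike in level in each single comparison as well. Neither the difference of these shares nor the part of level in it was tested.

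**Figure D4:**
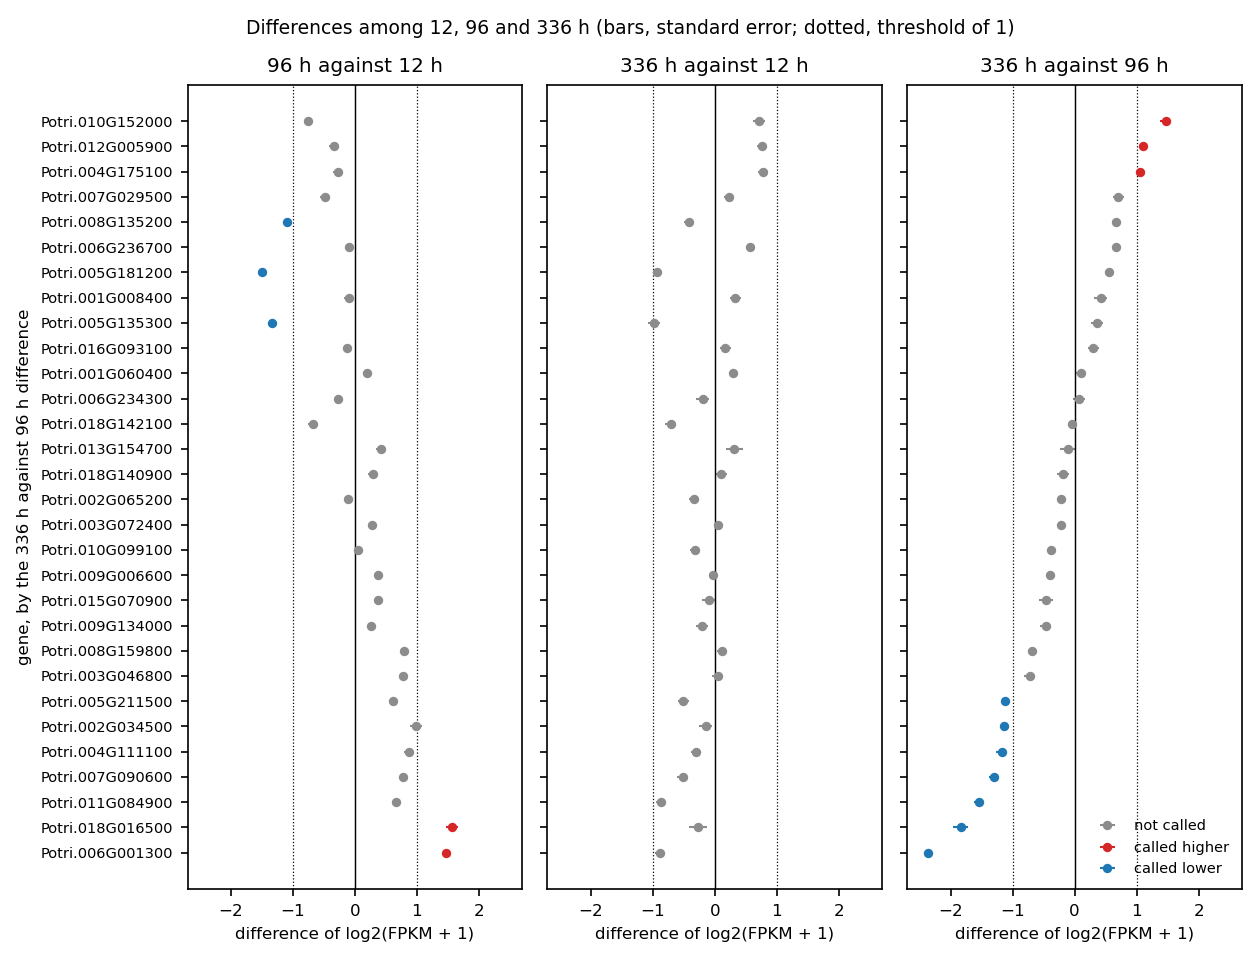
Difference of log2(FPKM + 1) (horizontal axes, with the standard error as a bar) for the 30 genes (vertical axis) in the 3 comparisons among 12, 96 and 336 h, with called genes in red (higher) and blue (lower) and dotted lines at the limit of 1. At 336 h against 12 h all 30 points lie between the dotted lines, while 5 lie past them at 96 h against 12 h and 10 at 336 h against 96 h.

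The comparisons of 12, 96 and 336 h with the control share the control libraries with each other and with the rule, which asked for a high control, so their counts are a description. At 12 h, 1 of the 30 genes was called lower and 2 higher, beside 2.62% and 6.21% of the genes tested. The lower gene was Potri.006G234300, with a log2 difference of -1.003. The higher were Potri.008G135200 with 1.37 and Potri.018G142100, named after its values were seen, with 1.21. At 96 h, 3 genes were lower and 1 higher, beside 1.84% and 8.18%. The lower were Potri.006G234300, Potri.005G135300 and Potri.004G175100, with log2 differences of -1.27, -1.22 and -1.07, and the higher was Potri.006G001300 with 2.15.

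The 336 h libraries had 5 genes lower than the control and 1 higher, beside 4.07% and 8.28%. The lower were Potri.011G084900, Potri.007G090600, Potri.006G234300, Potri.009G006600 and Potri.002G034500, with log2 differences of -1.45, -1.32, -1.20, -1.03 and -1.02, and the higher was Potri.012G005900 with 1.30. Without control replicate 2, 3 of the lower genes were called. The count of higher genes was 3 without 336 h replicate 3, and 2 without 336 h replicate 1 or 2 or without control replicate 1 or 3. At 12 h, 0 genes were lower without control replicate 2 and 2 without control replicate 1. The median log2 difference of the 30 genes was -0.24 at 12 h, 0.035 at 96 h and -0.41 at 336 h, beside 0.15, 0.13 and 0.21 over all genes tested. Quantile normalization moved these medians of all genes to -0.020, -0.073 and 0.014, as that method gives all libraries the same distribution. Potri.006G234300 was the only gene of the 30 called lower than the control at all 3 times.

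Lists of genes by role, and families of transcription factors, were taken from descriptions in the study's tables, which hold 1147 genes that the study picked on these libraries. Of 42 lists, 3 held 1 of the 30 genes and none held more. These were the peroxidase list, with Potri.005G135300, and the ethylene list and the AP2/ERF family, both with Potri.007G090600. The peroxidase list of 42 genes, of which 40 were expressed, had a median log2 difference of 0.0074 between 48 h replicates 1 and 2 and replicate 3, with 6 genes at least 1 lower and 3 at least 1 higher. Potri.005G135300 was among the 6. The AP2/ERF family of 89 genes had a median of 0.43, with 8 genes at least 1 lower and 28 at least 1 higher, and Potri.007G090600 was among the 8. At 96 h against 12 h, 5 peroxidase genes were called higher and 12 lower of 38 tested, while the median of the list was 0.14, above 0, and the log2 difference of Potri.005G135300 was -1.34. At 336 h against 96 h, 8 AP2/ERF genes were called higher and 37 lower of 75 tested, with a median of -0.98. As the study picked the genes of these lists for changes in the same libraries, nothing is read from these counts.

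The 30 genes lay on 16 of the 19 chromosomes by their identifiers, with none on chromosomes 14, 17 and 19. Chromosomes 5, 6 and 18 held the most, 3 genes each (10%), beside 6.4%, 7.1% and 3.6% of all genes. Chromosomes 14, 17 and 19 held 4.9%, 3.6% and 2.9% of all genes. Nothing is read from these counts. The closest pairs were Potri.018G140900 and Potri.018G142100, with 9 of the genes in the files between them, and Potri.006G234300 and Potri.006G236700, with 17 between them, and no gene of the 30 had another as its neighbour. Potri.018G142100 and Potri.006G236700 are named here for their place only. The gene length recovered from the FPKM values had a median of 1540.5 bp, from 636 to 3914, beside 1707 bp over all genes. Promoter and protein sequences were not analysed here.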

How the data were processed

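The authors deposited FPKM values of 30485 genes for 18 libraries, 3 per group, made from reads mapped to the *P. trichocarpa* genome; the submitters' processing notes name HISAT2 2.1.0 and Bowtie2 2.2.3, without a role. All values (100%) are a whole number of fragments within 0.001 for 1 gene length and 1 library total, so fragments, lengths and totals were recovered. FPKM is relative to the library total, so a rise of some genes lowers the share of others.

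The 30 genes and all lists were chosen with earlier results of these data known. Each comparison took the 6 libraries of its groups, and limma (version 3.58.1, under R 4.3.3) was fitted to log2(FPKM + 1) of the genes that reached 1 FPKM in 3 or more of them. Calls needed an adjusted p under 0.05 (Benjamini-Hochberg, over all genes tested) and an absolute log2 difference of 1 or more. A pseudocount of 1 understates changes of low genes. P-values weigh the difference between the groups compared against the spread of libraries within groups, which limma moderates over all genes tested. That spread is the one between these libraries only. Replicates of a group differed by more than counting error, so none was counted as a repeat. The chi-square per gene was 84.95 and 85.8 for the pairs with 48 h replicate 3, and 1.59 to 6.78 for all other pairs. Named were the 10 genes with the largest fall against the control (control mean of at least 5 FPKM), the 10 highest in the control, those in the table of transcription factors, up to 3 called genes per direction and comparison among 12, 96 and 336 h, and genes at a threshold. Alternatives were a pseudocount of 0.1, no filter, quantile normalization, a variance trend, all 18 libraries or the 15 outside 48 h in 1 fit, a replicate block, limma-voom on the fragments (at least 10 in 3 libraries) and each library left out. Steps were tested on simulated data. Tables and figures were made with Python 3.11.15, numpy 2.4.6, pandas 2.3.3 and matplotlib 3.10.9.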

Additional observations from a re-analysis of the deposited data

How the results depend on the processing

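The number of genes chosen depended on the limits of the rule, as a pseudocount of 0.1 gave 101 genes, a limit of 1.5 or 2.5 to replicate 3 gave 64 or 9, and a limit of 1 or 2 to the control and 24 h gave 49 or 8. Without single control or 24 h libraries it was 29 to 30. At 96 h against 12 h, 1 gene was higher and 2 were lower with all 18 libraries in 1 fit. In the same comparison, 3 were higher with a pseudocount of 0.1 or limma-voom, and 2 to 3 with a library left out. At 336 h against 96 h, 2 genes were higher and 6 lower with all 18 libraries in 1 fit. At 336 h against 12 h, 1 gene was lower with a pseudocount of 0.1 and with limma-voom, and 0 to 1 with a library left out. At 12 h against the control, 1 gene was higher with all 18 libraries in 1 fit, and 2 were lower with a pseudocount of 0.1, quantile normalization or limma-voom and 0 to 2 with a library left out. At 336 h against the control, 3 genes were higher with a pseudocount of 0.1 or limma-voom. The count of higher genes was 0 with all 18 libraries in 1 fit and 1 to 3 with a library left out. In the same comparison, 7 genes were lower with quantile normalization and 6 with a pseudocount of 0.1 or limma-voom. With all 18 libraries in 1 fit 3 were lower, and with a library left out 3 to 5. At 48 h against the control, 22 were lower with all 18 libraries in 1 fit and 0 to 30 with a library left out. The cause was not tested, except that the joint fit takes in the wide spread of the 48 h group. No direction turned. Of the 15 calls of the genes among 12, 96 and 336 h, 4 were lost in the joint fit of 18 libraries, with the same differences and larger standard errors, and in no other alternative (Potri.006G001300 and Potri.008G135200 at 96 h against 12 h, Potri.002G034500 and Potri.012G005900 at 336 h against 96 h); the joint fit of the 15 libraries outside 48 h, added after the data were seen, lost none.

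Replicates with the same number were not shown to be paired, as 1 of 45 same-numbered pairs had a correlation of deviations over 0.1 (from -0.128 to 0.1005). With the replicate block, no count changed: 2 genes higher and 3 lower at 96 h against 12 h, 0 and 0 for 336 h against 12 h, and 3 higher and 7 lower for 336 h against 96 h. Against the control, 12 h had 2 genes higher and 1 lower, 96 h had 1 higher and 3 lower, 336 h had 1 higher and 5 lower, and 48 h had 0 in either direction.

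Depth limits the low pair most in Potri.008G135200, at 17 fragments per library.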
